A study of Mus musculus with 8 samples.

Results

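The genes described here are 119 mouse zinc finger genes that carry the Zfp name and were expressed in bone marrow derived macrophages. They are the rows of the deposited gene table that are annotated as protein coding, have a symbol of Zfp followed by a digit, and reached a mean of at least 2 FPKM over the 8 libraries. FPKM, fragments per length of gene and size of library, is a level per length. The Zfp36 family, whose proteins bind AU-rich mRNA through another kind of finger, was left out by name. The table holds 54532 rows, of which 22046 are protein coding and 390 of these are Zfp genes outside the Zfp36 family. Of the 271 that stayed below the threshold, 81 had a mean under 0.1 FPKM, among them 28 that were listed at 0 in every library. The genes just below it were Zfp526 at 1.98 FPKM, Zfp369 at 1.99 and Zfp943 at 1.99, and those just above it were Zfp626 at 2.01, Zfp426 at 2.02 and Zfp367 at 2.03.

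Most Zfp proteins are sequence-specific DNA binding proteins. A C2H2 finger folds around a zinc ion held by cysteine and histidine side chains, and an array of such fingers reads a longer DNA word. Many members also carry a KRAB box, which recruits the corepressor Trim28 and through it the histone methyltransferase Setdb1, and these KRAB proteins are best known for silencing retroviruses and other mobile elements. Other members lack that box and act as activators, as ubiquitin ligases, at stalled ribosomes or in RNA processing.

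The study asked how spermine, a polyamine that cells make themselves, bears on interferon signalling in macrophages. Poly(A)-selected RNA of macrophages grown from mouse bone marrow was sequenced in 4 groups with 2 libraries each, namely spermine with 3 h of IFN-β, spermine at 0 h, PBS with 3 h of IFN-β and PBS at 0 h. IFN-β is the type I interferon that induces antiviral genes, and PBS is the buffer control. The labels give no mouse strain, age or sex, no dose and no length of the spermine treatment. The series' design text names DMSO where the labels name PBS, and the extraction protocol names blood. Cells cultured for the same 3 h without IFN-β are not among the samples, so an effect of IFN-β and of the elapsed time cannot be told apart. The labels do not say whether the libraries of a group came from separate animals or cultures, so the spread behind every p-value is that between libraries and may be technical. In bulk RNA, fewer cells of a type and less RNA per cell cannot be told apart.

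Rebuilt reads came to 15723437 to 17744844 per library. All 7 macrophage markers tested, among them Adgre1, Csf1r and Lyz2, reached 1 FPKM, with sums of 10453 to 12933 FPKM over the libraries. Erythroid markers were listed at 0, no B cell, fibroblast or mast cell marker reached 1 FPKM, 1 of 5 T cell markers did (Cd4) and 2 of 4 neutrophil markers did, with sums of 4.80 to 7.91 FPKM. Of the 3 endothelial markers, Kdr stood at 18.9 and 19.6 FPKM in spermine with IFN-β, 2.09 and 2.30 FPKM in spermine at 0 h, 37.3 and 36.3 FPKM in PBS with IFN-β and 2.43 and 2.37 FPKM in PBS at 0 h, while Cdh5 stayed below 1 FPKM in every library and Pecam1 reached it in 1 library (1.02 FPKM in PBS with IFN-β). All 3 stood higher in both 3 h groups than in both 0 h groups, Cdh5 with 0.374 and 0.658 FPKM in spermine with IFN-β, 0.172 and 0.170 FPKM in spermine at 0 h, 0.784 and 0.707 FPKM in PBS with IFN-β and 0.208 and 0.165 FPKM in PBS at 0 h. Their part in the Zfp results was not tested.

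In the coding sequences that the annotation gives for these genes, 115 of the 119 members held at least 1 match to the classical C2H2 finger pattern, with a median of 9 fingers and a highest count of 30 in Zfp236. The 4 without a match were Zfp703, Zfp503, Zfp330 and Zfp839. A KRAB pattern was found in 36 members (30.3%), against 139 of 269 translated Zfp genes below the threshold (51.7%), and a SCAN pattern, a dimerisation domain, in 5 members. KRAB members had a median of 11 fingers and the others a median of 6. The KRAB members were also expressed at lower levels, with a median of 3.20 FPKM against 4.51 FPKM in the other members, and none of them reached 10 FPKM. The highest member with the KRAB pattern was Zfp869 at 9.23 FPKM. The pattern asks for set residues at set spacings, so a KRAB box that departs from it is missed. KRAB member here means a match to the pattern, and members without a match may still carry a KRAB box. These shares and medians are descriptions and were not tested.

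The members lay low on the expression scale of these macrophages. Their mean levels ran from 2.01 to 27.9 FPKM with a median of 3.91 FPKM, against a median of 9.05 FPKM over the 8098 protein-coding genes that reached the same threshold. Only 15 members reached 10 FPKM and 5 reached 20 FPKM. The 6 highest by mean level were Zfp703, Zfp710, Zfp513, Zfp207, Zfp800 and Zfp385a, and the ranks of Zfp703 and Zfp800 rest on the groups in which they were high. All 119 members passed the filter for testing, which asked for 1 FPKM in at least 2 libraries. In each of the 4 groups 70 members had a mean of at least 2 FPKM, 49 fell under it in at least 1 group and 8 fell under 1 FPKM in at least 1 group. In 21 members the mean over the groups other than the highest was under 2 FPKM, so they reached the threshold through a single group, which was PBS at 0 h for 13 of them. Zfp395, Zfp324, Zfp948, Zfp644, Zfp809, Zfp764, Zfp874b, Zfp407, Zfp691, Zfp467, Zfp282 and Zfp626 are among them. Their changes against that group are descriptions. The counts called in each comparison are also given for the 98 other members, a division made after the values were seen. Overlaps, classes and clusters are counted over all members alone.

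Members took up 0.274% and 0.280% of all reads in the libraries of spermine with IFN-β, 0.411% and 0.401% in spermine at 0 h, 0.318% and 0.316% in PBS with IFN-β, and 0.466% and 0.456% in PBS at 0 h. The 4 groups did not overlap, and the share was lowest where spermine and IFN-β were both given. A share also moves when other genes take more of the reads. On the deposited FPKM scale the summed level was 630 and 640 FPKM in spermine with IFN-β, 734 and 723 FPKM in spermine at 0 h, 676 and 659 FPKM in PBS with IFN-β, and 679 and 680 FPKM in PBS at 0 h. The median member stood at 3.13 and 3.17 FPKM, 4.66 and 4.29 FPKM, 3.5 and 3.41 FPKM, and 4.45 and 4.33 FPKM in the same order of groups. Both 3 h groups lay below both 0 h groups in this median. No test was made of these sums, since the members were chosen.

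Changes below are differences in log2(FPKM + 1) between group means from a limma fit over all 11421 genes kept, given with their standard error. A gene is said to have risen or fallen when its Benjamini-Hochberg adjusted p over all 11421 genes was under 0.05. The added 1 FPKM makes changes look smaller for genes at or under about 1 FPKM. The deposited scale keeps the median gene near no change. Rescaling to TPM, which fixes each library's total, shifts the median gene by -0.46 for IFN-β in PBS, -0.33 for IFN-β with spermine, -0.34 for spermine at 0 h and -0.20 for spermine at 3 h, and by 0.14 for the difference of the responses.

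**Figure D1:**
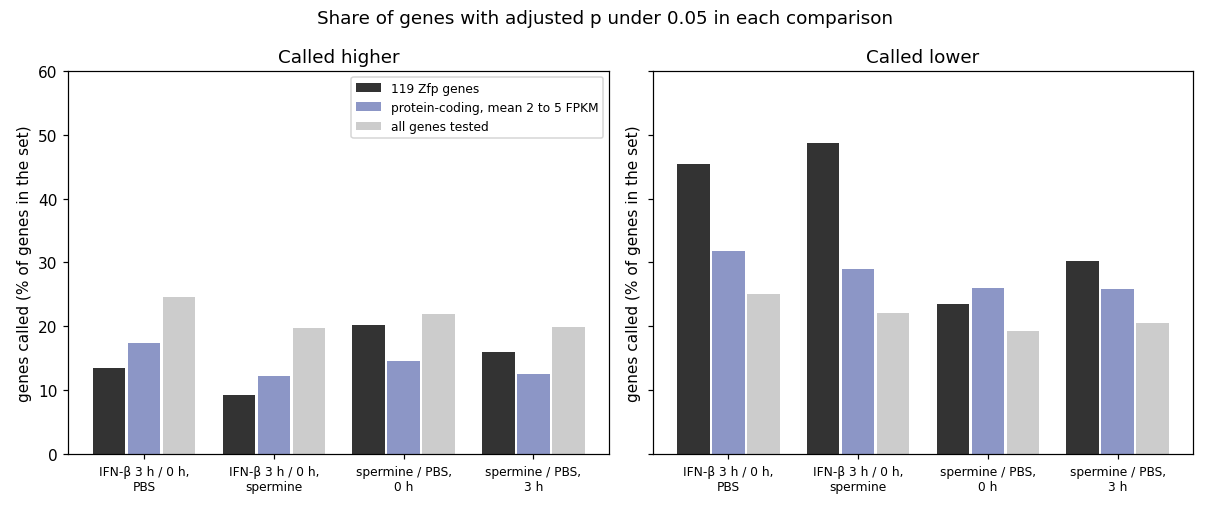
Share of genes with an adjusted p under 0.05, called higher (left) and lower (right), in each of the 4 comparisons of 2 groups, for the 119 members, protein-coding genes of similar level (mean of 2 to 5 FPKM) and all genes tested. Bars start at 0 and show the percentage of each set; the members' bars for lower calls with IFN-β are the tallest of their groups.

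IFN-β in PBS was followed by lower levels for 54 of the 119 members and higher levels for 16, with a median change of -0.30. Over all genes tested, 25.0% were called lower and 24.6% higher, with a median of -0.02. Among protein-coding genes with a mean of 2 to 5 FPKM, where most members lie, 31.7% were called lower and 17.4% higher, with a median of -0.13. Of the members 45.4% were called lower, above the share in both backgrounds, and 13.4% were called higher, below both. By 1 log2 unit or more, 7 members rose and 10 fell. Of the 11421 genes tested, 1233 rose and 522 fell by as much, and of 2336 coding genes of 2 to 5 FPKM, 130 rose and 121 fell. Rises of that size were a smaller share of the members than of all genes. The falls of that size include Zfp395, Zfp764 and Zfp809, which reached the threshold through PBS at 0 h, the group compared against. Falls of that size were not counted among the 98 other members, so their share is no result about the members. After TPM rescaling 86 members were called lower and 10 higher, and without PBS 0 h replicate 2 the count called lower was 33. The TPM counts carry the shift of the median gene by -0.46. The share of all genes called under TPM or without that library is not given, so these counts are no result about the members. Of the 98 members that did not rest on a single group, 42 fell and 15 rose (median -0.27).

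The risers were led by Zfp800, a zinc finger gene studied in the developing mouse pancreas. Zfp800 had 51.1 and 40.5 FPKM in PBS with IFN-β, against 4.67 and 4.83 FPKM in PBS at 0 h, a change of 3.02 ± 0.12 (adjusted p = 1.8e-06). With spermine it had 23.3 and 26.5 FPKM at 3 h of IFN-β, against 6.0 and 5.41 FPKM at 0 h, a change of 1.95 ± 0.12 (adjusted p = 2.8e-05). The levels of Zfp800 were thus near each other in the 0 h groups and well apart in the 3 h groups. Zfp281, a regulator of pluripotency genes in embryonic stem cells, had 32.9 and 30.8 FPKM in PBS with IFN-β, against 7.67 and 7.63 FPKM in PBS at 0 h, a change of 1.92 ± 0.07 (adjusted p = 1.3e-06). It had 14.8 and 15.3 FPKM in spermine with IFN-β, against 5.28 and 5.80 FPKM in spermine at 0 h, a change of 1.30 ± 0.07 (adjusted p = 1.5e-05). The 4 groups of Zfp281 did not overlap, and spermine libraries were lower than PBS libraries at both times.

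Zfp319 rose by similar amounts in both backgrounds. It had 21.1 and 21.8 FPKM in spermine with IFN-β, against 4.08 and 4.92 FPKM in spermine at 0 h, a change of 2.03 ± 0.10 (adjusted p = 9.1e-06). In PBS it had 16.9 and 19.8 FPKM with IFN-β, against 4.73 and 4.73 FPKM at 0 h, a change of 1.75 ± 0.10 (adjusted p = 1.3e-05). Zfp513, known in humans for a variant form of retinal degeneration, rose by 1.31 ± 0.14 in PBS (28.3 and 35.0 FPKM with IFN-β, against 11.5 and 12.7 FPKM at 0 h; adjusted p = 0.00024). Zfp324, a KRAB member, had 7.71 and 8.09 FPKM in PBS with IFN-β, against 1.62 and 1.65 FPKM in PBS at 0 h, a change of 1.76 ± 0.08. Zfp324 reached the threshold through these PBS libraries with IFN-β. Its spermine libraries were much lower, with 1.52 and 1.57 FPKM at 3 h of IFN-β, against 0.619 and 0.645 FPKM at 0 h. Zfp382, a KRAB member, and Zfp821 rose by 1.07 ± 0.09 and 0.97 ± 0.07 in PBS.

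To show the DNA next to the starts of leading risers, the 250 bases upstream of 3 of them are given below from RefSeq (GRCm38.p6), read 5′ to 3′ on the strand of the gene. Zfp281 stands on the plus strand with its window at chr1:136624651-136624900, Zfp800 on the minus strand with its window at chr6:28398006-28398255, and Zfp324 on the plus strand with its window at chr7:12965588-12965837. Each window ends at the base before the start of the gene in the deposited table.
Zfp281: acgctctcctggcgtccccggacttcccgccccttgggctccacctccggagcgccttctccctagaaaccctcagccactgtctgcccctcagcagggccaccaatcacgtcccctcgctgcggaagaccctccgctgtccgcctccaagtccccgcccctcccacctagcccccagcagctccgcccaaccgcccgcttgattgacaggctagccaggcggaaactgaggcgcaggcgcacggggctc
Zfp800: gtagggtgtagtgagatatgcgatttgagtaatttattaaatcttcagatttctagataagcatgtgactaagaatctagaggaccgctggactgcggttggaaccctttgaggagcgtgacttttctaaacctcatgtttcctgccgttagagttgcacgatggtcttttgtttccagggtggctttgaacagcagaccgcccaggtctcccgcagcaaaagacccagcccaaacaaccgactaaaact
Zfp324: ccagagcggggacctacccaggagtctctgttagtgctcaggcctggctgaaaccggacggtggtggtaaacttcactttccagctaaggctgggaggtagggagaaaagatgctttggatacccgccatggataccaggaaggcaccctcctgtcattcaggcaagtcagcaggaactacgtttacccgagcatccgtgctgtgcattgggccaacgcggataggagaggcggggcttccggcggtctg
The G and C content of these windows was 69.6% for Zfp281, 46.4% for Zfp800 and 58.4% for Zfp324. None of the 3 holds GAAA, any 2 bases and GAAA again, the letters of the interferon-stimulated response element, on either strand, which is why no letter is in capitals. Across members, 99 of 119 had a window in the RefSeq table. A gene was counted when any of its windows held the letters. Of the 99 members 0 did, against 3.57% of 7848 protein-coding genes tested and 3.46% of all 27025 genes with a window. TTCNNNGAA, the letters of the STAT-binding GAS element, were held by 16 members (16.2%), against 7.01% of the protein-coding genes tested and 8.13% of all genes with a window. TGACNNNGC, the core of the antioxidant response element, was held by 15 members (15.2%), against 14.4% and 11.5%. A match is only a run of letters, and no match says only that these letters are not within the 250 bases searched.

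The largest fall with IFN-β in PBS was that of Zfp395, whose human counterpart ZNF395 binds papillomavirus control regions. Zfp395 had 0.696 and 0.706 FPKM in PBS with IFN-β, against 9.09 and 10.0 FPKM in PBS at 0 h, a change of -2.63 ± 0.10. Zfp395 is a member through the PBS 0 h libraries alone, so its changes against them are a description of the values that brought it in. In spermine it had 0.498 and 0.456 FPKM with IFN-β, against 1.52 and 1.2 FPKM at 0 h, a change of -0.67 ± 0.10 (adjusted p = 0.0023). Zfp52, a KRAB member on chromosome 17, had 2.29 and 2.11 FPKM in PBS with IFN-β, against 8.07 and 6.99 FPKM in PBS at 0 h, a change of -1.41 ± 0.13 (adjusted p = 0.00014). Zfp703, a corepressor of the NET family, fell by 1.28 ± 0.15 in PBS (3.80 and 4.73 FPKM with IFN-β, against 10.8 and 12.8 FPKM at 0 h, with adjusted p = 0.00033). Zfp764, a KRAB member, fell by 1.32 ± 0.16 in PBS, with 1.06 and 0.790 FPKM with IFN-β, against 3.73 and 3.88 FPKM at 0 h.

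**Figure D2:**
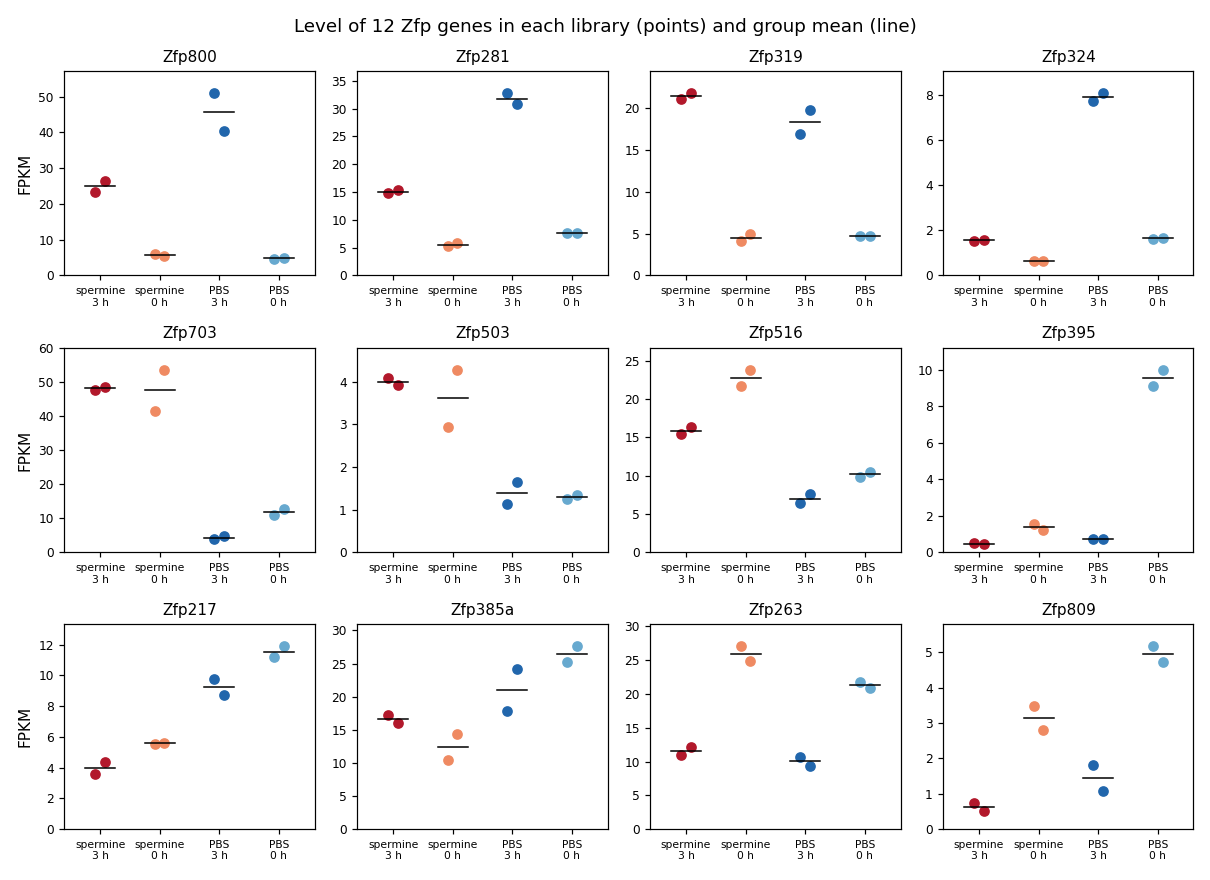
FPKM of 12 members in each of the 8 libraries (points) with the group mean (line), in the order spermine 3 h, spermine 0 h, PBS 3 h, PBS 0 h; each panel has its own linear axis from 0. Zfp800, Zfp281 and Zfp324 stand highest in PBS with IFN-β, Zfp703 and Zfp516 in the spermine groups, and Zfp395 in PBS at 0 h.

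Falls with IFN-β also outnumbered rises with spermine. Here 58 members fell and 11 rose, with a median change of -0.37, while 22.1% of all genes tested were called lower and 19.7% higher. Among coding genes of 2 to 5 FPKM, 29.0% were called lower and 12.3% higher. Of the 98 members that did not rest on a single group, 46 fell and 10 rose (median -0.34). The members' median was -0.75 after TPM rescaling. The PBS and spermine responses share no library, so their overlap can be counted. Of the members, 10 rose in both, which is 62.5% of those that rose in PBS and 90.9% of those that rose with spermine, where the shares over all genes tested were 65.9% and 82.3%. Among these were Zfp800, Zfp281, Zfp319, Zfp324, Zfp513, Zfp821 and Zfp382. Another 42 fell in both, 77.8% of the falls in PBS and 72.4% of the falls with spermine, against 61.2% and 69.3% over all genes. These falls include Zfp395, Zfp809, Zfp764 and Zfp874b, which reached the threshold through a 0 h group, and the rises include Zfp324. The overlaps were not counted for the 98 other members, so the shares are descriptions. In opposite called directions there were 0 members and 0.517% of all genes. Across the 119 members the changes had the same sign in 101 (84.9%, against 76.8% of all genes), with Pearson's r = 0.797 and Spearman's rho = 0.704, given as descriptions of genes measured in the same libraries.

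Several falls were as large with spermine as without. Zfp263, a SCAN member that is among the most expressed Zfp genes here, had 11 and 12.2 FPKM in spermine with IFN-β, against 27.1 and 24.8 FPKM in spermine at 0 h, a change of -1.10 ± 0.09 (adjusted p = 0.00012). In PBS it had 10.7 and 9.34 FPKM with IFN-β, against 21.8 and 20.9 FPKM at 0 h, a change of -1.02 ± 0.09 (adjusted p = 0.00011). The 3 h libraries of Zfp263 thus lay near 1 level and its 0 h libraries near another, with or without spermine. Zfp146 fell by 1.2 ± 0.15 with spermine (2.38 and 2.50 FPKM at 3 h, against 7.63 and 6.24 FPKM at 0 h) and by 0.97 ± 0.15 in PBS (3.13 and 2.12 FPKM at 3 h, against 6.16 and 5.90 FPKM at 0 h). Zfp821 was the clearest riser after Zfp319 and Zfp800 with spermine, at 9.58 and 9.46 FPKM with IFN-β, against 3.11 and 3.20 FPKM at 0 h, a change of 1.34 ± 0.07 (adjusted p = 1.2e-05). Zfp382 rose by 1.14 ± 0.09 with spermine, to 6.18 and 6.19 FPKM, against 2.08 and 2.44 FPKM at 0 h.

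**Figure D3:**
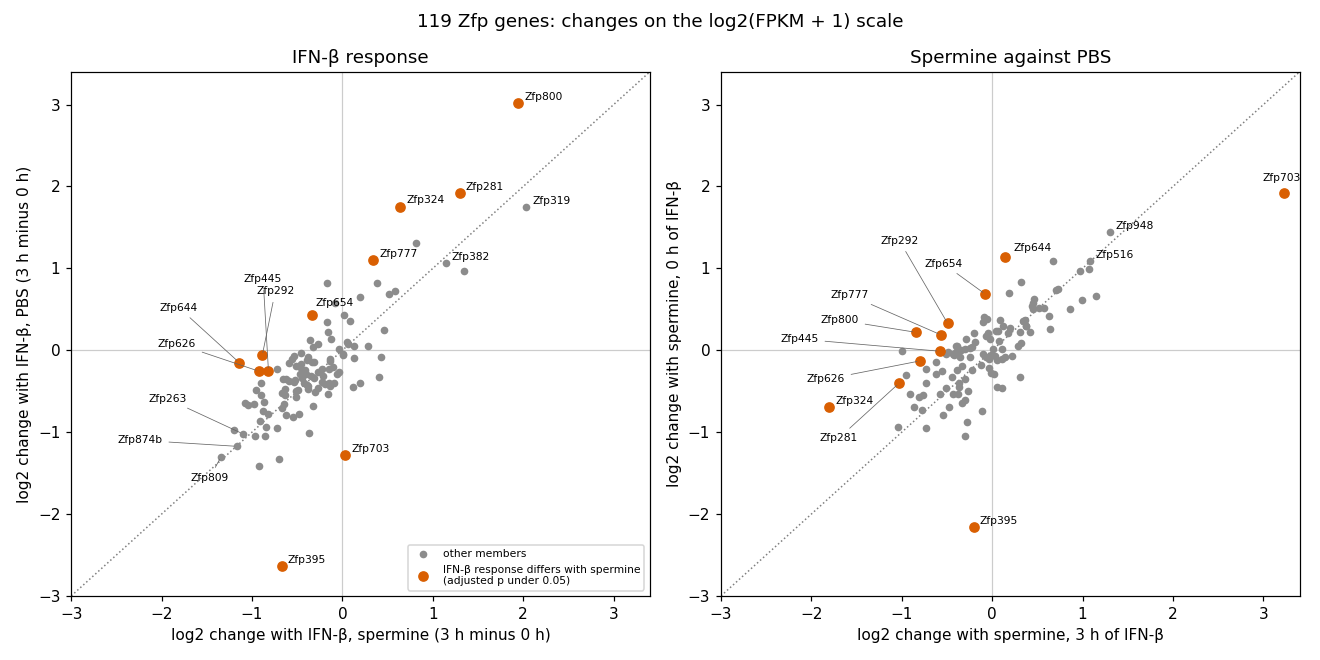
Each point is 1 of the 119 members. Left, log2(FPKM + 1) change with IFN-β in spermine (horizontal) and in PBS (vertical); right, change with spermine at 3 h (horizontal) and at 0 h (vertical); the dotted line marks equal change, and orange points are the 11 members whose IFN-β responses differed between spermine and PBS. Zfp800 lies at 1.95 and 3.02 in the left panel and Zfp703 at 3.23 and 1.91 in the right panel.

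Spermine on its own, before IFN-β, moved members both ways. Against PBS at 0 h, 24 members rose and 28 fell, with a median change of -0.01, where 22.0% of all genes tested were called higher and 19.2% lower. Among coding genes of 2 to 5 FPKM the shares were 14.5% and 26.0%. The 41 members with a mean of at least 5 FPKM had 11 rises and 6 falls and a median of 0.19, while the 78 below it had 13 rises and 22 falls and a median of -0.08. Over all coding genes of at least 2 FPKM, 26.7% were called higher and 19.6% lower, with a median of 0.05. At 2 to 5 FPKM the median of coding genes was -0.09. Coding genes at large thus also rose more often at higher levels. Of the 98 members that did not rest on a single group, 20 rose and 19 fell, and their median was 0.016. The balance depends on membership, on scaling and on single libraries. Counts without a library rest on 1 library in its group. No share of all genes is set beside them, so they are no result about the members. TPM rescaling, which shifts the median gene by -0.34 here, gave 15 rises and 49 falls, with no share of all genes to set beside them. The count of falls was 12 when PBS 0 h replicate 2 was left out, 15 when PBS 0 h replicate 1 was, and 17 when spermine 0 h replicate 2 was, and leaving out PBS 0 h replicate 1 turned the median to 0.06 and leaving out spermine 0 h replicate 2 turned it to 0.08.

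At 3 h of IFN-β, 19 members were higher and 36 lower with spermine than with PBS, with a median change of -0.10, where 19.9% of all genes tested were called higher and 20.6% lower. Among coding genes of 2 to 5 FPKM these shares were 12.5% and 25.8%. Of the 98 members that did not rest on a single group, 15 were higher and 28 lower (median -0.063). After TPM rescaling, which shifts the median gene by -0.20 here, 14 were higher and 50 lower, with no share of all genes to set beside them. The counts without single libraries that follow also have no such share beside them. The lower count was 21 without PBS 3 h replicate 1, 17 without spermine 3 h replicate 1 and 23 without spermine 3 h replicate 2, and the higher count was 12 without spermine 3 h replicate 2. The 0 h and 3 h comparisons share no library. In both of them 17 members rose, 70.8% of the rises at 0 h and 89.5% of those at 3 h, against 60.6% and 66.8% over all genes. Another 19 fell in both, 67.9% of the falls at 0 h and 52.8% of those at 3 h, against 51.0% and 47.6% over all genes. Some of both reached the threshold through a single group, as Zfp948 and Zfp874b among the rises and Zfp324 and Zfp809 among the falls. The overlaps were not counted for the 98 other members, so the shares are descriptions. No member and 1.30% of all genes moved in opposite called directions. The sign was the same in 91 of the 119 members (76.5%, against 72.3% of all genes), with Pearson's r = 0.731 and Spearman's rho = 0.722 as descriptions.

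Zfp703 was the member with the largest rise with spermine at both times and had the highest mean level of all members. It had 47.7 and 48.5 FPKM in spermine with IFN-β, 41.5 and 53.6 FPKM in spermine at 0 h, 3.80 and 4.73 FPKM in PBS with IFN-β and 10.8 and 12.8 FPKM in PBS at 0 h. All 4 spermine libraries lay above all 4 PBS libraries. The change with spermine was 3.23 ± 0.15 at 3 h (adjusted p = 1.7e-05) and 1.91 ± 0.15 at 0 h (adjusted p = 0.00013). Zfp503, the other NET family member in the set, also stood higher with spermine. It had 4.08 and 3.92 FPKM in spermine with IFN-β, 2.94 and 4.29 FPKM in spermine at 0 h, 1.14 and 1.64 FPKM in PBS with IFN-β and 1.24 and 1.35 FPKM in PBS at 0 h. It rose by 1.07 ± 0.16 at 3 h and by 0.99 ± 0.16 at 0 h. Both proteins are transcriptional corepressors with a single atypical finger, and neither held a match to the classical finger pattern.

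Zfp516, an activator of brown fat genes, had 15.4 and 16.3 FPKM in spermine with IFN-β, 21.7 and 23.8 FPKM in spermine at 0 h, 6.43 and 7.54 FPKM in PBS with IFN-β and 9.87 and 10.5 FPKM in PBS at 0 h. It rose with spermine by 1.08 ± 0.09 at 3 h and by 1.09 ± 0.09 at 0 h, and fell with IFN-β by 0.49 in both backgrounds. The 4 groups of Zfp516 did not overlap. Zfp948, a KRAB member, had 2.99 and 3.69 FPKM in spermine with IFN-β, 6.22 and 4.42 FPKM in spermine at 0 h, 0.810 and 0.700 FPKM in PBS with IFN-β and 1.25 and 1.33 FPKM in PBS at 0 h. Its change with spermine was 1.30 ± 0.15 at 3 h and 1.45 ± 0.15 at 0 h. Zfp52, the direct neighbour of Zfp948, rose with spermine by 1.14 ± 0.13 at 3 h, with 6.02 and 6.12 FPKM in spermine, against 2.29 and 2.11 FPKM in PBS. Zfp655 rose by 0.67 ± 0.10 at 3 h (6.70 and 6.91 FPKM in spermine, against 4.07 and 3.76 FPKM in PBS) and by 1.10 ± 0.10 at 0 h (16.9 and 14.1 FPKM in spermine, against 6.92 and 6.51 FPKM in PBS).

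Falls with spermine were led at 3 h by Zfp324, Zfp217 and Zfp281. Zfp324 was lower by 1.81 ± 0.08 on the log2 scale at 3 h, and Zfp281 changed by -1.03 ± 0.07 (adjusted p = 0.0001). Zfp217, an oncoprotein that binds the CoREST corepressor, had 3.61 and 4.36 FPKM in spermine with IFN-β, 5.53 and 5.63 FPKM in spermine at 0 h, 9.76 and 8.72 FPKM in PBS with IFN-β and 11.2 and 11.9 FPKM in PBS at 0 h. It fell with spermine by 1.04 ± 0.10 at 3 h and by 0.93 ± 0.10 at 0 h, and all its spermine libraries lay below all its PBS libraries. At 0 h the largest fall was again that of Zfp395, by 2.16 ± 0.10 (1.52 and 1.2 FPKM in spermine, against 9.09 and 10.0 FPKM in PBS). Zfp385a, a p53 partner, had 10.5 and 14.3 FPKM in spermine at 0 h, against 25.2 and 27.6 FPKM in PBS at 0 h, a change of -1.05 ± 0.17 (adjusted p = 0.0035). Zfp710 had 12.9 and 14.8 FPKM in spermine at 0 h, against 26.0 and 29.1 FPKM in PBS at 0 h, and 19.0 and 19.8 FPKM in spermine with IFN-β, against 30.0 and 35.8 FPKM in PBS with IFN-β. It fell by 0.95 ± 0.11 at 0 h and by 0.73 ± 0.11 at 3 h. Zfp692 fell by 0.87 ± 0.12 at 0 h, with 2.15 and 2.13 FPKM in spermine, against 4.36 and 5.16 FPKM in PBS. At 3 h Zfp429 had 1.78 and 2.15 FPKM in spermine, against 6.07 and 3.97 FPKM in PBS, and Zfp691 had 1.52 and 1.07 FPKM in spermine, against 2.69 and 4.31 FPKM in PBS. Their changes of -1.0 ± 0.24 and -0.96 ± 0.21 passed the test with all libraries. Zfp691 and Zfp324 are members through PBS with IFN-β, so their falls against it describe the values that brought them in. Zfp429 did not pass without PBS 3 h replicate 1 (-0.75), spermine 3 h replicate 1 (-0.91) or spermine 3 h replicate 2 (-1.09), and Zfp691 did not pass without spermine 3 h replicate 2 (-0.81).

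**Figure D4:**
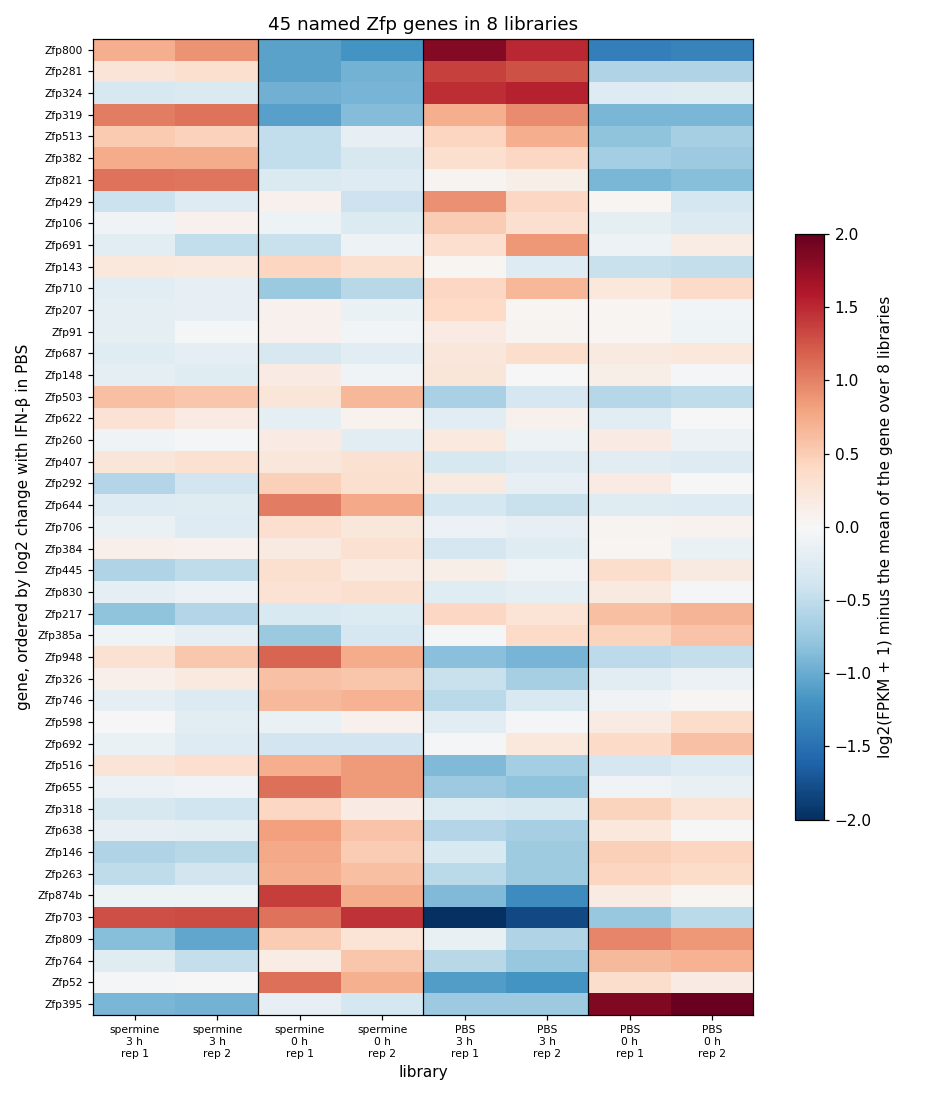
Level of 45 members in each library as log2(FPKM + 1) minus the mean of that gene over the 8 libraries, red above and blue below, with genes ordered from highest to lowest change with IFN-β in PBS and columns in the order spermine 3 h, spermine 0 h, PBS 3 h, PBS 0 h. Colours end at -2 and 2, and values beyond take the end colour; Zfp800, Zfp281 and Zfp324 are red in the PBS 3 h columns, and Zfp395 in the PBS 0 h columns.

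The response to IFN-β itself differed between spermine and PBS for 11 members, 9 with a lower (7.56%) and 2 with a higher (1.68%) change in spermine. Over all genes tested 7.75% were called lower and 5.82% higher in this test of the difference, and among coding genes of 2 to 5 FPKM 5.91% and 5.35%. Of the 98 members that did not rest on a single group, 6 were called lower and 1 higher. The count of lower calls was 3 without PBS 0 h replicate 1, 2 without PBS 0 h replicate 2, 4 without spermine 0 h replicate 1, 2 without spermine 3 h replicate 1 and 4 without spermine 3 h replicate 2, and the count of higher calls was 5 without PBS 3 h replicate 2. TPM rescaling gave 4 lower and 3 higher, and quantile normalization 10 lower and 4 higher. The share of all genes called is not given for these counts or for those without single libraries. The largest lower differences were those of Zfp324 (-1.11 ± 0.11) and Zfp800 (-1.07 ± 0.17, adjusted p = 0.012), where a rise with IFN-β was smaller in spermine. That of Zfp800 did not pass without spermine 3 h replicate 1 (-0.98). Zfp644, which joins the histone methyltransferases G9a and GLP, differed by -0.99 ± 0.16, and did not pass without PBS 0 h replicate 2 (-0.98). Zfp644 had 1.82 and 1.84 FPKM in spermine with IFN-β, 5.86 and 4.67 FPKM in spermine at 0 h, 1.64 and 1.47 FPKM in PBS with IFN-β and 1.86 and 1.81 FPKM in PBS at 0 h. It was thus high in spermine at 0 h alone, the group through which it is a member, and in the 3 h libraries of spermine stood near its PBS levels. The higher differences were those of Zfp395 (1.96 ± 0.15), which was already low in spermine at 0 h, and of Zfp703 (1.31 ± 0.21, adjusted p = 0.01), which fell with IFN-β in PBS and had 47.7 and 48.5 FPKM in spermine at 3 h, against 41.5 and 53.6 FPKM in spermine at 0 h.

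Some members are known for work on mobile elements, imprints or promoters, and 5 of them are described next. They come from a list of members with a known role, and Zfp809 was also picked by its falls with IFN-β. Zfp809, a KRAB member that silences murine leukaemia proviruses in embryonic stem cells, had 0.724 and 0.524 FPKM in spermine with IFN-β, 3.47 and 2.79 FPKM in spermine at 0 h, 1.82 and 1.07 FPKM in PBS with IFN-β and 5.16 and 4.73 FPKM in PBS at 0 h. It fell with IFN-β by 1.34 ± 0.17 in spermine and by 1.30 ± 0.17 in PBS. Zfp809 is a member through PBS at 0 h, so its fall in PBS is a description. Zfp638, whose human counterpart works with the HUSH complex on unintegrated retroviral DNA, had 2.51 and 2.43 FPKM in spermine with IFN-β, 5.93 and 4.83 FPKM in spermine at 0 h, 1.61 and 1.48 FPKM in PBS with IFN-β and 3.57 and 2.97 FPKM in PBS at 0 h. It fell with IFN-β by 0.87 ± 0.12 in spermine and by 0.74 ± 0.12 in PBS. Zfp445, a regulator of genomic imprints, had 5.22 and 5.62 FPKM in spermine with IFN-β, 10.9 and 9.82 FPKM in spermine at 0 h, 9.29 and 7.98 FPKM in PBS with IFN-β and 11.1 and 9.76 FPKM in PBS at 0 h. Its fall with IFN-β passed in spermine, by 0.82 ± 0.10, and its level in spermine with IFN-β lay below that of the other 3 groups. Zfp746, a repressor known as PARIS, fell with IFN-β in spermine by 0.90 ± 0.10 (3.44 and 3.17 FPKM at 3 h, against 6.93 and 7.18 FPKM at 0 h) and rose with spermine at 0 h by 0.70 ± 0.10. Zfp143, which binds promoters of many housekeeping genes, rose with spermine at 0 h by 0.84 ± 0.11 (8.27 and 7.62 FPKM in spermine, against 4.05 and 3.97 FPKM in PBS).

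Zfp598, the ubiquitin ligase that marks collided ribosomes, had 10.4 and 8.72 FPKM in spermine with IFN-β, 9.43 and 11.2 FPKM in spermine at 0 h, 8.83 and 10.1 FPKM in PBS with IFN-β and 11.8 and 13.8 FPKM in PBS at 0 h. Its change of -0.40 ± 0.13 with IFN-β in PBS (adjusted p = 0.038) did not pass without PBS 0 h replicate 2 (-0.29) or without PBS 3 h replicate 1 (-0.31). Zfp622, a ribosome maturation factor, lay between 4.77 and 7.20 FPKM in all libraries and passed no test. Zfp91, a ubiquitin ligase of the noncanonical NF-κB pathway, lay between 11.2 and 14.7 FPKM and passed no test, and neither did the DNA-binding factors Zfp148 and Zfp260. Zfp326, part of a complex that couples transcription to splicing, rose with spermine by 0.71 ± 0.10 at 3 h (2.80 and 3.02 FPKM in spermine, against 1.58 and 1.23 FPKM in PBS) and by 0.73 ± 0.10 at 0 h (4.29 and 4.18 FPKM in spermine, against 2.04 and 2.26 FPKM in PBS). Zfp106, an RNA-binding protein needed by motor neurons, rose with IFN-β in PBS by 0.65 ± 0.10 (23.2 and 20.4 FPKM at 3 h, against 13.9 and 13.1 FPKM at 0 h), a rise that did not pass after TPM rescaling (0.21). Zfp207, a spindle protein, lay between 17.5 and 27.1 FPKM in all libraries, and its change of -0.40 ± 0.13 with spermine at 3 h (adjusted p = 0.045) did not pass without PBS 3 h replicate 1 (-0.22) or without either of the spermine 3 h libraries (-0.39 and -0.42), nor without either of the PBS 0 h libraries. Zfp407, a factor studied in fat cells and on chromosome 18, rose with spermine by 0.57 ± 0.09 at 3 h (2.57 and 2.73 FPKM in spermine, against 1.40 and 1.51 FPKM in PBS) and by 0.51 ± 0.09 at 0 h. In all, 100 members passed in at least 1 of the 4 comparisons of 2 groups, 20 in all 4 and 19 in none. Of all genes tested 74.1% passed in at least 1 and 11.3% in all 4.

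The calls of members with the KRAB pattern and of those without a match can be set side by side. Some of the latter may carry a KRAB box that the pattern missed. With IFN-β in PBS, 17 of 36 KRAB members fell (47.2%) and 7 rose (19.4%, median -0.35), against 37 falls (44.6%) and 9 rises (10.8%) among the 83 others (median -0.27), where all genes gave 25.0% and 24.6%. With IFN-β in spermine, 21 KRAB members fell (58.3%) and 4 rose (11.1%, median -0.53), against 37 falls (44.6%) and 7 rises (8.43%, median -0.33), where all genes gave 22.1% and 19.7%. With spermine at 3 h, 12 KRAB members fell (33.3%) and 5 rose (13.9%, median -0.28), against 24 falls (28.9%) and 14 rises (16.9%, median -0.05), where all genes gave 20.6% and 19.9%. At 0 h the KRAB members gave 8 of each (22.2%), against 20 falls (24.1%) and 16 rises (19.3%) in the others, where all genes gave 19.2% and 22.0%. KRAB members had the lower median level. Coding genes of 2 to 5 FPKM were called lower in 31.7% with IFN-β in PBS and 29.0% with IFN-β in spermine. With spermine these shares were 25.8% at 3 h and 26.0% at 0 h. Members that reached the threshold through a single group, such as Zfp809 and Zfp764, are counted here. The difference between the classes was not tested.

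The corepressor machinery that KRAB proteins call on was looked at through a list of 24 cofactors, of which 22 were tested. With IFN-β 3 rose (13.6%) and 9 fell (40.9%) in PBS, where all genes gave 24.6% and 25.0%, and 4 rose (18.2%) and 7 fell (31.8%) in spermine, where all genes gave 19.7% and 22.1%. With spermine 2 rose (9.09%) and 8 fell (36.4%) at 3 h, where all genes gave 19.9% and 20.6%, and 3 rose (13.6%) and 7 fell (31.8%) at 0 h, where all genes gave 22.0% and 19.2%. With so few genes, 1 gene moves a share by several points, and no test was made. Trim28, the scaffold itself, lay between 27.6 and 31.6 FPKM in all 8 libraries and passed no test. Setdb1, the methyltransferase that Trim28 recruits, had 4.28 and 4.84 FPKM in spermine with IFN-β, 5.81 and 5.15 FPKM in spermine at 0 h, 5.41 and 5.27 FPKM in PBS with IFN-β and 8.77 and 7.91 FPKM in PBS at 0 h. It fell by 0.56 with IFN-β in PBS and by 0.53 with spermine at 0 h. The rises were led by Morc3, a nuclear body ATPase that restrains viruses, with 48.3 and 41.4 FPKM in PBS with IFN-β, against 12.5 and 12.6 FPKM in PBS at 0 h (1.76), and by the deacetylase Hdac1, with 35.2 and 35.1 FPKM in PBS with IFN-β, against 13 and 12.8 FPKM in PBS at 0 h (1.38). Cbx5, a heterochromatin protein that reads the mark Setdb1 writes, fell with spermine by 1.15 at 3 h (1.06 and 1.10 FPKM in spermine, against 3.54 and 3.73 FPKM in PBS) and by 0.89 at 0 h. Of this list, Trim28 apart, the genes named were chosen after their values were seen.

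Zfp genes sit in clusters in the mouse genome, and 48 members had another member within 500 kb, in 15 clusters. Chromosome 7 alone held 29 of the 119. Coordinates are those of the deposited table on GRCm38. The largest group had 8 members between 127244274 and 127885996 on chromosome 7, of which Zfp764, Zfp747, Zfp646 and Zfp668 fell with IFN-β in PBS and 0 rose. In this comparison 47.9% of the members with another member within 500 kb were called lower. The share was 45.4% of all members and 25.0% of all genes tested. The fall of Zfp668 did not pass without PBS 0 h replicate 2 (-0.37), PBS 3 h replicate 1 (-0.45) or PBS 3 h replicate 2 (-0.49). Zfp764 and Zfp747 in that group moved apart with spermine at 3 h, where Zfp747 rose by 0.86 ± 0.12 (3.62 and 3.75 FPKM in spermine, against 1.47 and 1.69 FPKM in PBS) and Zfp764, with 1.57 and 1.18 FPKM in spermine and 1.06 and 0.790 FPKM in PBS, did not pass. On chromosome 6, between 47877204 and 48445825, neighbours went opposite ways with IFN-β in PBS. There Zfp777 rose by 1.10 ± 0.12 (10.2 and 12.6 FPKM with IFN-β, against 4.48 and 5.10 FPKM at 0 h) and Zfp212 by 0.82 ± 0.10 (8.04 and 9.40 FPKM with IFN-β, against 4.26 and 4.74 FPKM at 0 h), while Zfp467 fell by 1.0 (1.5 and 2.05 FPKM with IFN-β, against 4.06 and 5.06 FPKM at 0 h). Zfp282 and Zfp746 also fell there, but did not pass without PBS 0 h replicate 2 (-0.47 and -0.34) or without PBS 3 h replicate 1 (-0.40 and -0.27). On chromosome 7, between 29768552 and 30169750, Zfp382 rose and Zfp146 and Zfp84 fell with IFN-β in PBS. Zfp777, Zfp212, Zfp747, Zfp668, Zfp646, Zfp282, Zfp467 and Zfp84 were named after their values were seen.

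On chromosome 13, between 67387905 and 67729173, lay the group of Zfp429, Zfp874b, Zfp87 and Zfp65. Such neighbours may be close copies of each other, but their sequences were not compared. The labels do not say how reads that fit several genes were assigned, nor whether counting used the strand. Values of these genes and of any close copies are thus uncertain, as are those of genes that overlap another gene. Zfp874b had 1.56 and 1.57 FPKM in spermine with IFN-β, 6.20 and 3.61 FPKM in spermine at 0 h, 0.492 and 0.147 FPKM in PBS with IFN-β and 2.09 and 1.82 FPKM in PBS at 0 h. It fell with IFN-β by 1.17 ± 0.22 in spermine and by 1.17 ± 0.22 in PBS. Zfp429 changed by 0.82 ± 0.24 with IFN-β in PBS, which did not pass without PBS 0 h replicate 2 (0.62) or without PBS 3 h replicate 1 (0.56).

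A search among the GAS matches led to a longer run of letters, ACTACA, any 2 bases and TCCCA, the core of the site that Zfp143 and its partner Thap11 are known to bind at promoters. It was chosen after the windows had been seen. It was held by 12 of 99 members (12.1%), on either strand, against 3.95% of protein-coding genes tested and 1.55% of all genes with a window. In 4 of the 12 it overlapped a GAS match. Of the 12 members, 6 lie on chromosome 7, 3 on chromosome 13, and 5 have a KRAB pattern. Sites of 8 of them are given on the strand that reads ACTACA first, with the motif in capitals and up to 15 bases to each side, to show how far the flanks differ between genes. They stand at chr7:30169845-30169887 (plus strand) for Zfp146, chr7:24081858-24081896 (minus) for Zfp180, chr8:3493098-3493137 (plus) for Zfp358, chr13:67729174-67729207 (plus) for Zfp65, chr4:119174347-119174389 (minus) for Zfp691, chr7:29815952-29815994 (minus) for Zfp790, chr7:29768513-29768551 (minus) for Zfp84 and chr13:67484262-67484304 (plus) for Zfp874b.
Zfp146: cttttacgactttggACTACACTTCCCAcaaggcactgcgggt
Zfp180: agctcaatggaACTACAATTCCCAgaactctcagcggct
Zfp358: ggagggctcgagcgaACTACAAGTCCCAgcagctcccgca
Zfp65: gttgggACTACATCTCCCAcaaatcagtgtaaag
Zfp691: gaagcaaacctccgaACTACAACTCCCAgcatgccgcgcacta
Zfp790: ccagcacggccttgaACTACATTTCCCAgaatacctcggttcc
Zfp84: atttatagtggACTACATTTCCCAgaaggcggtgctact
Zfp874b: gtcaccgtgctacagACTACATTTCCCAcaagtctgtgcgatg
The calls of the 12 members with these letters were mixed. With IFN-β in PBS 1 rose and 3 fell (25.0%, against 45.4% of all members and 25.0% of all genes), and in spermine 0 rose and 7 fell (58.3%, against 48.7% of all members and 22.1% of all genes). With spermine 1 rose and 4 fell at 3 h (33.3%, against 30.3% of all members and 20.6% of all genes), and 2 rose and 1 fell at 0 h (8.33%, against 23.5% of all members and 19.2% of all genes). These counts are small and were not tested.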

How the data were processed

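RNA sequencing of 8 libraries was analysed from a single table of FPKM, the deposited level per gene that the authors had scaled by gene length and by a factor per library. Per the submitters' processing notes, CASAVA 1.8, fastp, HISAT2 2.0.5, featureCounts 1.5.0-p3 and DESeq2 1.20.0 were used with GRCm38 or mm10, and the notes give neither their order nor their settings. Groups and replicate numbers come from the sample titles.

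Reads were rebuilt as FPKM multiplied by gene length and divided by the step of each library, which gave whole numbers for 100% of values above 0 (tolerance 0.001 of a read) and the library totals. The filter of 1 FPKM in at least 2 libraries left 11421 genes, 9810 of them coding for protein. Log2(FPKM + 1) was fitted as 4 group means in limma 3.58.1 (R 4.3.3, with version 1.17.8 of data.table) with an intensity trend, 4 residual and a median of 2.83 prior degrees of freedom. The 5 comparisons were tested two-sided with Benjamini-Hochberg adjustment over all genes, with no correction between comparisons. The procedure was also run on simulated data with a fixed spread and fewer changed genes than were called here. No conclusion rests on it. Since the deposited unit is FPKM, no negative binomial model was fitted.

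The members, the lists of cofactors and of other zinc finger genes, and the tests were chosen with earlier results of these data known. The 45 genes shown in the heat map follow a written rule, namely members with a known role in a list, up to 5 risers and 5 fallers of the largest change per comparison whose groups do not overlap, up to 4 per direction for the difference of the responses, and the 6 members of the highest mean level. Genes named outside it were chosen after their values were seen. Promoter windows are RefSeq's on GRCm38.p6. Finger, KRAB and SCAN patterns were searched in coding sequences translated from the GENCODE annotation given with the genome, longest per gene. Alternatives were a pseudocount of 0.1, no filter, TPM, quantile normalization, no trend, a membership threshold of 5 FPKM, leaving out each library, a replicate block and, chosen after the data were seen, limma voom on the rebuilt reads and the 98 members with at least 2 FPKM outside their highest group. Tables and figures were made with Python 3.11.15, numpy 2.4.6, pandas 2.3.3, scipy 1.17.1 and matplotlib 3.10.9.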

Additional observations from a re-analysis of the deposited data

Results flagged for a closer look

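A limma test of whether IFN-β acted unequally in spermine and in PBS passed in 11 members (adjusted p under 0.05), with values given as the change in spermine minus the change in PBS. That is 7.56% lower and 1.68% higher, where 7.75% and 5.82% of all genes tested were called, so neither share lay above that over all genes. The change with IFN-β was lower in spermine for Zfp324 (-1.11), Zfp800 (-1.07), Zfp644 (-0.99), Zfp292 (-0.82), Zfp654 (-0.76), Zfp777 (-0.76), Zfp626 (-0.67), Zfp281 (-0.63) and Zfp445 (-0.57), and higher in spermine for Zfp395 (1.96) and Zfp703 (1.31), all on the log2 scale. Zfp324, Zfp395, Zfp644 and Zfp626 reached the membership threshold through a single group, so their values are descriptions. For Zfp324, Zfp395 and Zfp703 the difference passed whichever library was left out. It did not pass without 1 or more single libraries for the other 8. Zfp281 did not pass without PBS 0 h replicate 1 (-0.63), PBS 0 h replicate 2 (-0.62) or spermine 3 h replicate 1 (-0.60). Zfp292, Zfp445 and Zfp626 did not pass with any of the 8 libraries left out, with the exception of PBS 3 h replicate 2, and ranged over those 7 from -0.93 to -0.65, from -0.66 to -0.47 and from -0.74 to -0.53.

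Zfp292 had 2.42 and 2.96 FPKM in spermine with IFN-β, against 6.19 and 5.46 FPKM in spermine at 0 h, and 4.84 and 3.61 FPKM in PBS with IFN-β, against 4.75 and 4.11 FPKM in PBS at 0 h. Its spermine libraries lay below all PBS libraries at 3 h and above all of them at 0 h. Zfp626 had 0.831 and 0.747 FPKM in spermine with IFN-β, against 2.52 and 2.28 FPKM in spermine at 0 h, and 2.42 and 1.84 FPKM in PBS with IFN-β, against 2.90 and 2.54 FPKM in PBS at 0 h. Zfp654 had 4.69 and 4.73 FPKM in spermine with IFN-β, against 6.72 and 5.73 FPKM in spermine at 0 h, and 5.57 and 4.51 FPKM in PBS with IFN-β, against 3.87 and 3.12 FPKM in PBS at 0 h. Its 3 h groups overlap, and its 0 h groups do not. Zfp777 had 7.82 and 6.90 FPKM in spermine with IFN-β, against 5.35 and 5.84 FPKM in spermine at 0 h, and 10.2 and 12.6 FPKM in PBS with IFN-β, against 4.48 and 5.10 FPKM in PBS at 0 h. Zfp654 did not pass without any of 6 single libraries (-0.88 to -0.63), nor Zfp777 without any of 6 (-0.84 to -0.68). Zfp654, Zfp777 and Zfp626 are named because the test of the difference picked them.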

How the results depend on the processing

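Of 153 named changes that passed the test, 105 kept their call under every alternative run. The other 48 lost their call or sign under at least 1 alternative, 47 of them when a single library was left out, which leaves 1 library in its group, assumed to vary like the others. Under TPM 2 changed sign, Zfp143 with IFN-β in PBS (-0.049) and Zfp384 with spermine at 0 h (-0.026). All TPM counts and medians carry the shift of the median gene given earlier. Counts without a single library are given with no share of all genes called, so they are no result about the members. For IFN-β in PBS, the members' median was -0.35 with a pseudocount of 0.1, -0.37 with limma voom, -0.34 with quantile normalization and -0.79 with TPM, which gave 10 higher and 86 lower calls. For IFN-β in spermine, it was -0.49 with a pseudocount of 0.1, -0.51 with limma voom and -0.75 with TPM. Spermine at 0 h had 15 higher and 49 lower calls and a median of -0.35 with TPM, and 16 lower with no filter. Spermine at 3 h had a median of -0.054 with quantile normalization and -0.30 with TPM, and 23 lower calls with no filter. The test of unequal responses gave 4 higher calls with quantile normalization, 4 lower and a median of 0.066 with TPM, and 4 lower with no filter. Members of at least 5 FPKM, which are fewer, gave 9 higher and 16 lower (median -0.23) with IFN-β in PBS, 7 and 18 (-0.23) with IFN-β in spermine, 11 and 6 (0.19) with spermine at 0 h, 7 and 11 (-0.0086) with spermine at 3 h, and 1 and 4 (-0.11) for unequal responses. The 98 members with at least 2 FPKM outside their highest group, a division added after the data were seen, gave 1 higher call for unequal responses, and a median of 0.016 for spermine at 0 h. Beyond the smaller sets, the cause was not tested.

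Without 1 library at a time, IFN-β in PBS gave 12 to 17 higher and 33 to 57 lower members (medians -0.32 to -0.29), and IFN-β in spermine 8 to 12 higher and 40 to 62 lower (medians -0.42 to -0.32). Spermine at 0 h gave 17 to 29 higher and 12 to 28 lower (medians -0.057 to 0.076, above 0 without PBS 0 h replicate 1 at 0.06 or without spermine 0 h replicate 2). Spermine at 3 h gave 12 to 21 higher and 17 to 37 lower (medians -0.15 to -0.083), and the test of unequal responses 2 to 5 higher and 2 to 11 lower (medians -0.17 to -0.028). With the replicate number as a block, the counts of higher and lower members were 18 and 58, 11 and 64, 27 and 29, 23 and 40, and 2 and 11 in that order of comparisons, and the replicate block changed 0 of the 153 named calls. The titles read BM1 and BM2 in every group, and the labels do not say what these stand for. The main fit did not pair the libraries by them. Deviations from the group means correlated at 0.23 to 0.37 among PBS 0 h, PBS 3 h and spermine 0 h. With spermine 3 h they correlated at -0.13 to -0.06. Whether the libraries are paired is thus not settled, and the block fit allows for it. Negative binomial count models had been planned as alternatives and were not run, since the table holds FPKM. Levels under 1 FPKM, as for Zfp874b in PBS with IFN-β, rest on fewer reads than the rest.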

Other observations

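Among Zfp genes that stayed below the threshold, falls outnumbered rises. Of the 99 that could be tested, 41 fell (41.4%) and 6 rose (6.06%) with IFN-β in PBS, where 25.0% and 24.6% of all genes tested were called. With IFN-β in spermine 40 fell (40.4%) and 1 rose (1.01%), where all genes gave 22.1% and 19.7%. With spermine at 3 h 51 fell (51.5%) and 4 rose (4.04%), where all genes gave 20.6% and 19.9%, and at 0 h 41 fell (41.4%) and 5 rose (5.05%), where all genes gave 19.2% and 22.0%. Shares for genes of equally low level were not computed. The filter of 1 FPKM in at least 2 libraries can be met by a single group. Some of these genes may thus be in the set through the group where they were high. Falls against such a group are descriptions, and how many rest on this was not counted. Their low levels limit what the log2(FPKM + 1) scale can show, and none rose by 1 log2 unit or more in any of these 4 comparisons. Under spermine at 0 h their median was -0.37, against -0.01 in the members.

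Of 56 tested genes with other zinc finger symbols, 11 rose (19.6%) and 22 fell (39.3%) with IFN-β in PBS, 9 rose (16.1%) and 23 fell (41.1%) with IFN-β in spermine, 13 rose (23.2%) and 18 fell (32.1%) with spermine at 3 h, and 12 rose (21.4%) and 15 fell (26.8%) with spermine at 0 h, to be read against the same shares of all genes. Their response differed upwards in 7 (12.5%) and downwards in 4 (7.14%), where all genes gave 5.82% and 7.75%. Of 18 tested Zc3h genes, whose CCCH fingers bind RNA, 5 rose (27.8%) and 3 fell (16.7%) with IFN-β in PBS, 5 rose (27.8%) and 4 fell (22.2%) with IFN-β in spermine, 2 rose (11.1%) and 3 fell (16.7%) with spermine at 3 h, and 5 rose (27.8%) and 2 fell (11.1%) with spermine at 0 h. These lists were not tested against other genes.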
